A study of Mus musculus with 12 samples.

Results

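The genes that build cell-cell junctions were followed through RNA-seq counts of tumourspheres, the clusters that dissociated tumour cells form on a non-adherent surface. Members were chosen by name: protein-coding genes whose symbol is Cdh, Cldn, Dsc, Dsg, Pkp or Tjp with a number, together with Dsp, Jup, Ocln, Epcam, F11r, Marveld2, Marveld3, Ctnna1, Ctnnb1, Ctnnd1 and Cgn. The annotation held 83 such genes, and 36 of them were among the 18278 genes listed in the count files. These were 10 of 23 cadherins, 9 of 33 claudins, 7 of 8 other tight junction proteins, all 6 desmosomal plaque proteins, all 3 catenins and Epcam. The other 47, among them all 9 desmosomal cadherins (Dsc1 to Dsc3, Dsg1a to Dsg4), Cdh3, Cdh16, Cldn1, Cldn5, Cldn7 and Marveld3, were not analysed here.

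The 12 libraries came in 4 groups of 3, labelled LM1, LM1KO, LM9 and LM9KO. LM1 and LM9 are mouse breast cancer lines grown from lung metastases after transposon mutagenesis of the HR1 line, which descends from a mammary tumour driven by mutant PIK3CA, and they are called parental here. HR1 came from a transgenic mouse that expresses the mutant gene from a ubiquitous promoter, and its mutagenized derivative was grown in immunodeficient mice, from whose lungs the LM lines were taken. LM1KO and LM9KO are described as pools of CRISPR-Cas9 clones of these lines whose target was Nfib, which encodes a transcription factor of the NFI family. All cells were grown alike for 6 days from 10000 cells per mL, with EGF and basic FGF at 20 ng/mL each. The paper gives technical triplicates for tumoursphere measurements, without saying whether this covers the sequenced cultures. Whether the 3 cultures of a group were handled separately is not stated, so p-values measure only the spread between these libraries.

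Epithelial cells are held together by several kinds of junction, and these genes encode their parts. In adherens junctions, classical cadherins bind the same cadherin on the next cell and carry beta-catenin, alpha-catenin and p120-catenin on their inner side, which tie them to actin. In tight junctions, claudins and occludin form the strands that seal the space between cells, and the ZO proteins and cingulin anchor those strands. In desmosomes, desmosomal cadherins are linked by plakoglobin, plakophilins and desmoplakin to keratin filaments. A cadherin switch, the exchange of E-cadherin (Cdh1) for another cadherin such as N-cadherin (Cdh2), is a known mark of epithelial cells that take on mesenchymal traits.

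Library totals ran from 29249075 to 37162594 counts, and levels are given as CPM (a count scaled to the library total) after TMM scaling, or per kilobase of exon (RPKM) where genes are compared with each other. No loss of Nfib mRNA was seen: LM1 had 218 ± 22.6 CPM and LM1KO 235 ± 5.67 CPM (SD, n = 3; adjusted p = 0.533), and LM9 had 154 ± 48.8 CPM against 240.0 ± 11.2 CPM in LM9KO (log2 fold change 0.68, adjusted p = 0.0026). mRNA level does not test for a frameshift, so the groups are called by their labels. The library labelled LM9 replicate 1 stood with LM1, against its label: its log2 values correlated with those of the LM1 libraries at r between 0.99514 and 0.99551, against 0.96798 and 0.97028 with LM9 replicates 2 and 3. Whether it is mislabelled was not tested. The changes of members between LM9 and LM9KO are therefore also given without it. Between the 3 LM1KO and the 3 LM9KO libraries the correlations were from 0.99584 to 0.99649, as high as within either group, whereas every knockout-labelled library correlated with every parental library at only 0.72706 to 0.74245. Whether the knockout-labelled libraries descend from LM1 and LM9 was not tested, and an effect of the target and a difference in origin cannot be told apart.

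Of the 36 members, 35 passed the filter on low counts and Cdh11 did not. In LM1KO, 17 were higher and 16 lower than in LM1 (limma-voom, adjusted p under 0.05), where 43.1% of all 18176 genes tested were higher and 38.1% lower. In LM9KO, 17 were higher and 16 lower than in LM9, against 44.3% and 38% of all genes. The direction was the same in both lines for all 33 members. The median log2 fold change of the 35 members was -0.24 in LM1KO and 0.27 in LM9KO, against 0.08 and 0.13 over all genes. Since most genes of the series passed this test, the counts say little about the members, whose shares were near the background. The sizes of change differed more: the median absolute log2 fold change of the members was 2.97 in LM1KO and 4.02 in LM9KO (3.17 with the genes at 0 in a group set to their bound), against 1.16 and 1.24 over all genes tested. Without LM9 replicate 1, 17 members were higher and 16 lower in LM9KO, where 47.7% and 41.2% of all genes were. In these bulk cultures, fewer cells that express a gene and less RNA per cell cannot be told apart.

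**Figure D1:**
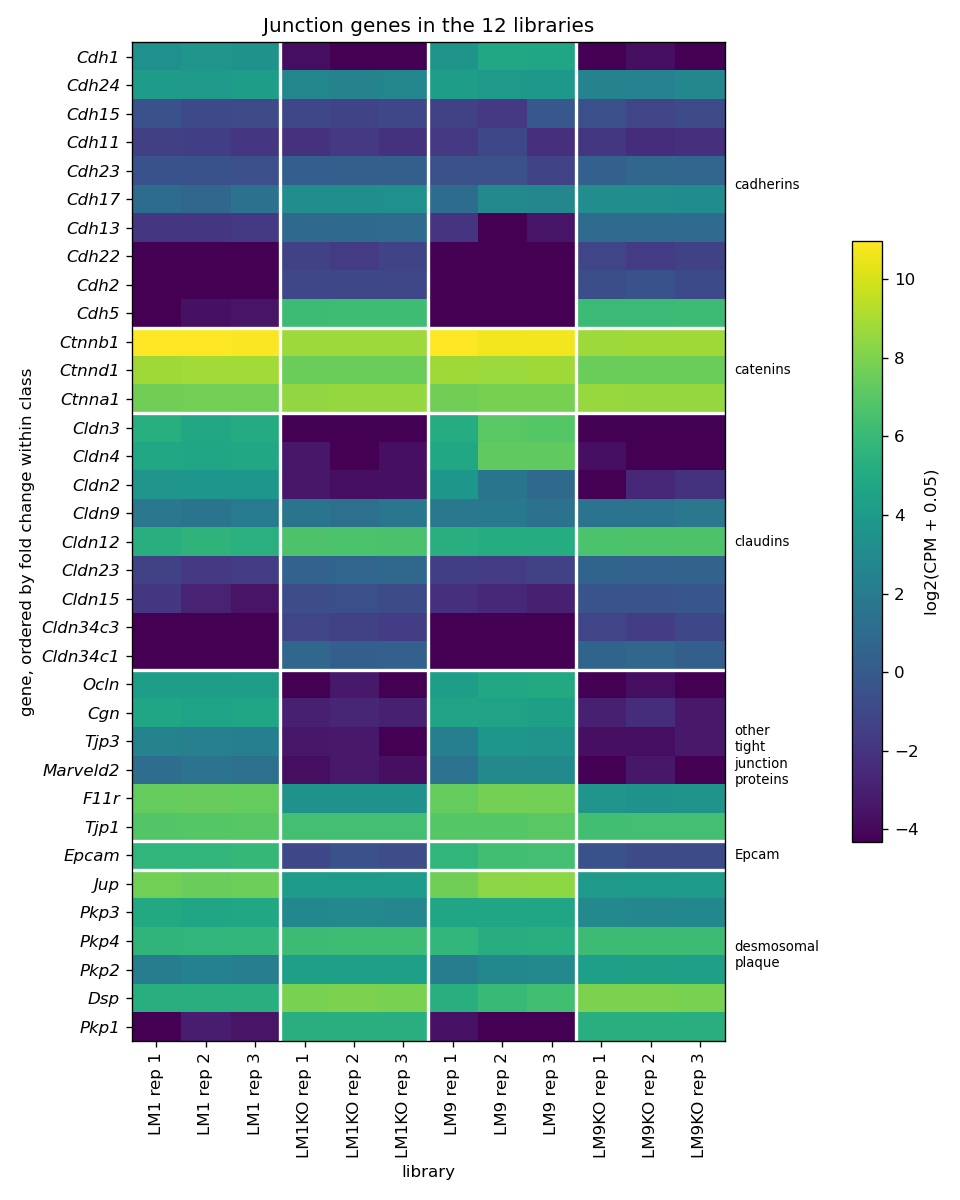
Levels of 35 members in each of the 12 libraries, as log2(CPM + 0.05), with genes in rows by junction class and ordered by fold change, and libraries in columns by group. Some rows are dark only in the 6 knockout-labelled libraries (Cdh1, Cldn3, Cldn4, Ocln) and others only in the 6 parental libraries (Cdh5, Cldn34c1, Pkp1), while LM9 replicate 1 looks like the LM1 columns.

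The makeup of the listed cadherins changed between parental and knockout-labelled libraries: E-cadherin was lost, N-cadherin appeared at a trace and VE-cadherin became the most abundant. In LM1 the most abundant per kilobase had been Cdh24, ahead of E-cadherin. Cdh1 (ENSMUSG00000000303; chromosome 8, 106603351 to 106670246, plus strand, mm10) was at 10.2, 12.4 and 11.5 CPM in LM1 and at 12.01, 28.2 and 26.5 CPM in LM9. In LM1KO it had 1 count over all 3 libraries and in LM9KO also 1, so the groups did not overlap. The level was 1319 times higher in LM1 than in LM1KO (95% counting interval 236 to 52167; adjusted p = 3.34e-06) and 2559 times higher in LM9 than in LM9KO (459 to 101142; adjusted p = 1.4e-06). Without LM9 replicate 1 the latter ratio was 3232 (579 to 127762; adjusted p = 4.23e-12). These intervals cover counting error only.

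Cdh2 (N-cadherin, of mesenchymal and neural cells) had 0 counts in all 6 parental libraries and 16 to 28 counts in each knockout-labelled library. Its level there was 0.428, 0.444 and 0.423 CPM in LM1KO and 0.596, 0.681 and 0.494 CPM in LM9KO. Against the floor of 3 counts summed over the parental group, this was at least 12.7-fold higher in LM1KO (adjusted p = 1.74e-08) and at least 15.8-fold higher in LM9KO (adjusted p = 8.92e-09), or at least 9.92-fold without LM9 replicate 1, where the floor rests on fewer reads (adjusted p = 7.48e-08). Per kilobase, Cdh2 in LM1KO was at 0.0535 ± 0.00139 RPKM (SD, n = 3), whereas Cdh1 in LM1 had been at 2.48 ± 0.243 RPKM.

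The listed cadherin that dominated the knockout-labelled libraries was VE-cadherin, best known from the adherens junctions of blood vessels. Cdh5 (ENSMUSG00000031871; chromosome 8, 104101625 to 104144511, plus strand) had 0 or 1 count in each LM1 library and 0 in each LM9 library. It was at 72.2, 73.2 and 74.6 CPM in LM1KO and at 67.8, 69.5 and 71.3 CPM in LM9KO, with no overlap. The level was 3244 times higher in LM1KO than in LM1 (counting interval 898 to 26792; adjusted p = 5.58e-11) and at least 1851-fold higher in LM9KO than in LM9 (adjusted p = 3.57e-11). Without LM9 replicate 1 the bound was 1164-fold (adjusted p = 1.17e-12). Cdh5 made up 79.2 to 80.2% of the summed RPKM of the 10 listed cadherins in each knockout-labelled library. In the parental libraries the sum was led by Cdh24 and Cdh1. Cdh24, a type II cadherin, held 60.4% of it in LM1 and Cdh1 30.6%. In LM9 replicates 2 and 3 the order was reversed and Cdh1 reached up to 50.8%. The sum itself was 7.81 to 8.45 RPKM in LM1 and 21.5 to 22.4 RPKM in LM1KO.

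**Figure D2:**
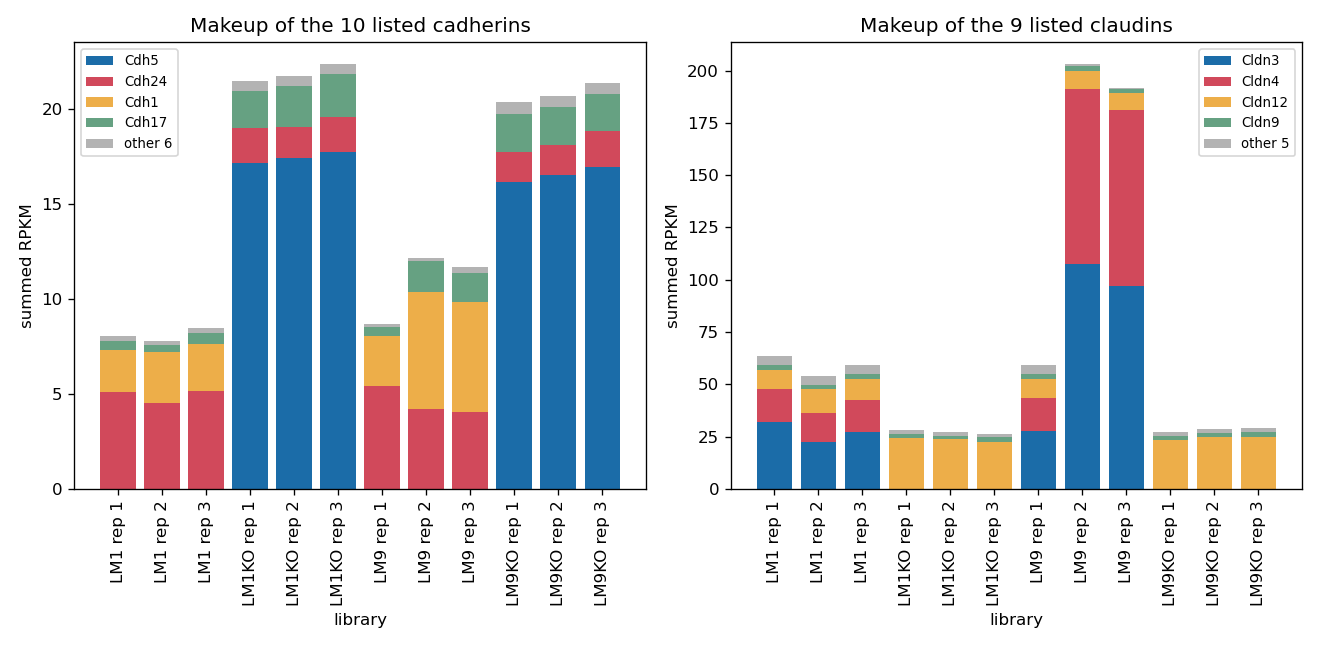
Summed RPKM (CPM per kilobase of exon) of the 10 listed cadherins (left) and 9 listed claudins (right) in each library, stacked by gene, with the smaller members in grey. Cdh5 fills about 80% of the cadherin bars in the 6 knockout-labelled libraries, and Cldn12 takes 84.9 to 87.0% of the claudin bars in LM1KO, where Cldn3 and Cldn4 are near 0.

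Since Cdh5 marks endothelium, other endothelial markers were read beside it. Of 10 such genes 6 were listed, and they did not move as one: Kdr (VEGF receptor 2), Vwf and Ramp2 rose in both lines, Egfl7 and Eng (endoglin) fell, and Pecam1 (CD31) did not pass. Kdr went from 0.0343 ± 0.0363 CPM in LM1 to 282 ± 2.23 CPM in LM1KO, whereas Eng went from 80.0 ± 2.75 to 1.58 ± 0.326 CPM. Pecam1 was at 0.433 ± 0.115 CPM in LM1KO and 0.314 ± 0.0878 CPM in LM1. The summed level of the 6 markers was 126 to 135 CPM in LM1 and 118 to 130.3 CPM in LM9, and 386 to 394 CPM in the knockout-labelled libraries. Only Kdr was at 3 counts or fewer in every library of LM1 and LM9, and none was so in the knockout-labelled groups. The part of these markers in the result was not tested.

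Of the remaining cadherins, Cdh13, Cdh17, Cdh22 and Cdh23 rose, as did 43.1% of all genes in LM1KO and 44.3% in LM9KO. Cdh17 (LI-cadherin, of gut and liver epithelium) was at 2.09, 1.62 and 2.60 CPM in LM1 and 8.79 to 10.1 CPM in LM1KO, a log2 fold change of 2.20 (SE 0.40, adjusted p = 0.000321). In LM9 it was at 2.02, 7.21 and 6.81 CPM against 8.63 to 8.93 CPM in LM9KO. The rise there, 0.97 (SE 0.34, adjusted p = 0.0206), was 0.33 (SE 0.11, adjusted p = 0.01) without LM9 replicate 1, and it did not pass with edgeR (adjusted p = 0.0688) or DESeq2 (adjusted p = 0.0657) on all libraries, or with limma-voom on only the groups compared (adjusted p = 0.0878). Cdh13 (T-cadherin, anchored in the membrane by a lipid), Cdh22 and Cdh23 (part of the tip links of inner ear hair cells) rose in both lines but reached no more than 2.02 CPM in any library. Cdh24 fell, from 17.1 ± 1.21 CPM in LM1 to 6.14 ± 0.407 CPM in LM1KO (log2 fold change -1.47, SE 0.13, adjusted p = 7.22e-07) and from 15.9 ± 2.64 to 5.92 ± 0.618 CPM in LM9 (-1.43, SE 0.13, adjusted p = 1.15e-06). Cdh15 (M-cadherin, of muscle) did not pass in either line, and its groups overlapped at 0.242 to 0.866 CPM. Cdh11 (OB-cadherin, of mesenchymal cells) did not pass the filter on low counts with all 12 libraries and had 4 to 11 counts in each, with overlap between all 4 groups. It was tested without LM9 replicate 1 and did not pass in LM1KO (adjusted p = 0.236) or LM9KO (adjusted p = 0.21). In the fit without LM9 replicate 3, Cdh11 passed as lower in LM9KO, so its call depended on which library was left out.

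The catenins that sit under the cadherins moved apart. Ctnnb1 (beta-catenin, which also carries the Wnt signal) had the highest level per length of all members, with 374 ± 10.1 RPKM in LM1 (SD, n = 3). It was at 1931, 1998 and 1895 CPM in LM1 and at 1922, 1618 and 1629 CPM in LM9. It was at 427 to 431 CPM in LM1KO and 420.5 to 436 CPM in LM9KO. The log2 fold change was -2.18 (SE 0.07, adjusted p = 1.02e-10) in LM1KO and -2.00 (SE 0.07, adjusted p = 1.97e-10) in LM9KO. Ctnnd1 (p120-catenin, which keeps cadherins at the surface) fell by 1.29 (SE 0.05, adjusted p = 7.28e-10) and by 1.20 (SE 0.05, adjusted p = 1.29e-09) on the log2 scale. Ctnna1 (alpha-catenin, the link to actin) rose by 0.83 (SE 0.06, adjusted p = 7.96e-08) and by 0.76 (SE 0.06, adjusted p = 1.78e-07). Beta-catenin made up 79.8% of the summed RPKM of the 3 catenins in LM1 and 49.96% in LM1KO, while alpha-catenin went from 6.9% to 34.7%. Exons of Ctnnd1 overlap those of the read-through gene Gm28635 on the same strand over 4482 bases, and Gm28635 went from 396 ± 8.94 CPM in LM1 to 167 ± 0.877 CPM in LM1KO, so reads of the pair cannot be told apart. Ctnnb1 shares 759 exon bases with Ulk4 on the other strand, which was at 2.67 ± 0.386 CPM in LM1.

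Among claudins, Cldn3, Cldn4 and Cldn2 fell to near 0. Cldn3, a sealing claudin of epithelia (ENSMUSG00000070473; chromosome 5, 134986214 to 134987472, plus strand) was at 39.95, 27.9 and 34.4 CPM in LM1 and at 34.7, 135 and 122 CPM in LM9. It had 0 counts in all 6 knockout-labelled libraries. The level was at least 1305-fold lower in LM1KO (adjusted p = 0.000113) and at least 3697-fold lower in LM9KO (adjusted p = 4.36e-05), or at least 5073-fold lower without LM9 replicate 1 (adjusted p = 1.24e-10). Cldn4, its neighbour on chromosome 5 (134945119 to 134946934, minus strand), was at 29.1, 25.7 and 27.4 CPM in LM1 and 28.7, 152 and 152 CPM in LM9. It had at most 2 counts in any knockout-labelled library. Its level was 1055 times higher in LM1 than in LM1KO (counting interval 361 to 5122; adjusted p = 0.00198) and 12561 times higher in LM9 than in LM9KO (2254 to 496187; adjusted p = 0.000379), and 17971 times higher without LM9 replicate 1 (3224 to 709900; adjusted p = 2.42e-13). Cldn2, which forms a pore for cations and water, was at 12.7, 13.1 and 12.8 CPM in LM1 and at 13.5, 3.02 and 1.89 CPM in LM9, and at no more than 7 counts in any knockout-labelled library. The ratio was 373 (145 to 1373; adjusted p = 0.000126) for LM1 over LM1KO and 64.6 (36.7 to 126; adjusted p = 0.000849) for LM9 over LM9KO. The latter depended on LM9 replicate 1, without which the LM9 mean was 2.46 CPM and the ratio 24.1 (13.3 to 47.9; adjusted p = 6.23e-07).

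The listed claudins that remained were led by Cldn12. It was at 38.7, 48.2 and 41.9 CPM in LM1 and 102, 100.1 and 94.7 CPM in LM1KO, a log2 fold change of 1.20 (SE 0.08, adjusted p = 6.62e-08). In LM9 it was at 39.3, 35.6 and 34.7 CPM against 98.7 to 105 CPM in LM9KO (1.49, SE 0.08, adjusted p = 1.27e-08). Its share of the summed claudin RPKM was 17.5% in LM1 and 86.0% in LM1KO. The sum of all 9 claudins was 53.9 to 63.3 RPKM in LM1 and 26.4 to 27.9 RPKM in LM1KO. In LM9 it was 59.3 RPKM in replicate 1 and up to 203 RPKM in the other two, against 27.3 to 29.2 RPKM in LM9KO. Cldn15 and Cldn23 rose in both lines at 1.66 CPM or less. Cldn34c1 and Cldn34c3 had 0 counts in all parental libraries and reached 1.63 and 0.442 CPM. They belong to a family of near-identical copies on the X chromosome, so their values are uncertain. Cldn9 was at 2.46 to 3.94 CPM in all 12 libraries and did not pass in either line.

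Of the other tight junction proteins, Ocln, Marveld2, Cgn, F11r, Tjp3 and Tjp1 fell in both lines, as Cldn3 and Cldn4 did, where 38.1% of all genes fell in LM1KO and 38% in LM9KO. Ocln (occludin, a membrane protein of the strands) was at 19.2, 18.8 and 18.0 CPM in LM1 and 18.7, 28.4 and 31.5 CPM in LM9, and at no more than 2 counts in any knockout-labelled library. It was 1081 times higher in LM1 than in LM1KO (299 to 8930; adjusted p = 1.25e-07) and 3043 times higher in LM9 than in LM9KO (546 to 120248; adjusted p = 6.5e-08), and 3538 times higher without LM9 replicate 1 (634 to 139842; adjusted p = 4.67e-12). Marveld2 (tricellulin, found at tricellular contacts) averaged 2.48 ± 0.329 CPM over LM1 and 5.84 ± 2.68 CPM over LM9, with 2 counts or fewer in each knockout-labelled library. Cgn (cingulin, a plaque protein that binds actomyosin) lay between 23.0 and 26.1 CPM in LM1 and between 20.5 and 23.9 CPM in LM9, and its level was 289 times (157 to 602) and 241 times (134 to 484) that of LM1KO and LM9KO. Without LM9 replicate 1 the ratio of LM9 to LM9KO was 232 (129 to 466) for Cgn and 436 (120 to 3617) for Marveld2, against 335 (92.2 to 2775) for Marveld2 with it. F11r (junctional adhesion molecule A) remained measurable, at 11 to 12.7 CPM in the knockout-labelled libraries against 161 to 168 CPM in LM1 and 165 to 219.7 CPM in LM9. Its log2 fold changes were -3.87 (SE 0.11, adjusted p = 7.23e-11) and -4.02 (SE 0.11, adjusted p = 5.01e-11).

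Of the ZO scaffold genes, Tjp3 was lost and Tjp1 fell by less. Tjp3 (ZO-3), which is largely restricted to epithelia, averaged 5.17 ± 0.484 CPM over LM1 and 9.98 ± 4.43 CPM over LM9, with 2 counts or fewer in any knockout-labelled library. For Tjp3 the ratio of LM9 to LM9KO was 286 (111 to 1053), and 370 (144 to 1362) without LM9 replicate 1. Tjp1 (ZO-1) went from 118, 124 and 129 CPM in LM1 to 83.0 to 85.9 CPM in LM1KO, a log2 fold change of -0.55 (SE 0.06, adjusted p = 4.31e-06), and changed by -0.61 (SE 0.06, adjusted p = 1.76e-06) in LM9KO. The size for Tjp1 depended on scaling: with library totals and no factors it was -0.33 in LM1KO and -0.25 in LM9KO. The exon union of Tjp3 overlaps Apba3 on the other strand by 40 bases.

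Epcam, an adhesion molecule of epithelial cells that binds claudins, was at 52.7, 54.0 and 57.0 CPM in LM1 and 54.2, 81.5 and 83.2 CPM in LM9. In the knockout-labelled libraries it had 18 to 26 counts, or 0.453 to 0.674 CPM. The log2 fold change was -6.61 (SE 0.35, adjusted p = 7.4e-09) in LM1KO and -6.93 (SE 0.34, adjusted p = 4.32e-09) in LM9KO, or -7.13 (SE 0.18, adjusted p = 3.1e-16) without LM9 replicate 1.

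The promoters of Epcam, Cldn4 and Tjp3, which fell in both lines, are shown as examples of the E-box CAGGTG or its reverse complement CACCTG. Repressors of epithelial genes such as ZEB1, SNAI1 and SNAI2 are known to bind this hexamer. Holding it does not single out these 3 genes. Ocln and F11r, which also fell, and Pkp4, which rose, hold it before a start too and are not shown. Repression through these E-boxes was not tested. The sequences shown are the 250 bases before the RefSeq start site on GRCm38.p6, 5′ to 3′ on the gene strand, E-boxes in capitals. None overlaps an annotated exon.
Epcam, chr17:87635729-87635978, plus strand: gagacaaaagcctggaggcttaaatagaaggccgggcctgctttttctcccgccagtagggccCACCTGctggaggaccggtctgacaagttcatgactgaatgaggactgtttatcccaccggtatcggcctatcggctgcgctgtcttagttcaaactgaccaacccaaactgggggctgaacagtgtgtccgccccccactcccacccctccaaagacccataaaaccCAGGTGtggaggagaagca
Cldn4, chr5:134946935-134947184, minus strand: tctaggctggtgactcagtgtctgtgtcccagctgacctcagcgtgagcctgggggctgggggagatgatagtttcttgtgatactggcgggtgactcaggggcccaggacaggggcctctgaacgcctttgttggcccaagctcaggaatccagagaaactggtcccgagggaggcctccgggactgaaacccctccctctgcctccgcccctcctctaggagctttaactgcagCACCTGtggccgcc
Tjp3, chr10:81291582-81291831, minus strand: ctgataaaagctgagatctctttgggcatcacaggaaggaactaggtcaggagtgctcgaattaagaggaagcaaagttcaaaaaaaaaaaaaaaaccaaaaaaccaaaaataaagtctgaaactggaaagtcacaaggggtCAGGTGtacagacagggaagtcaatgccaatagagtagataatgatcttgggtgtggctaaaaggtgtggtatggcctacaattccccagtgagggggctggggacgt
In the windows shown, the E-boxes of Epcam begin 187 and 19 bases before the start, that of Cldn4 14 bases before it and that of Tjp3 108 bases before it. Another RefSeq window of Tjp3 holds an E-box that begins 17 bases before its start. Cldn4 also holds one that begins at base 12 after a start. RefSeq windows of 250 bases before to 50 after the start were at hand for 23 of the 36 members. Of these, 9 held an E-box on either strand in at least one window (39.1%), against 22.6% of 27025 genes. They were Cldn3, Cldn4, Dsp, Epcam, F11r, Marveld2, Ocln, Pkp4 and Tjp3. Dsp and Pkp4 rose and the others fell. The short NFI motif TTGGC, or its reverse complement GCCAA, was in the windows of 13 of the 23 (56.5%), against 50.4% of all genes. The full NFI palindrome, TTGGC and GCCAA with 5 bases between them, was in none of them and in 0.0444% of all genes. A match describes letters in a window and shows no binding. Windows were not used for Cdh1, Cdh2, Cdh5, Cdh11, Cdh13, Cdh17, Cldn9, Cldn23, Ctnna1, Pkp1, Pkp2 and Pkp3, among others.

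The desmosomal plaque genes changed in makeup more than in total. All 6 together summed to 49.5 to 54.5 RPKM in LM1 and 53.5 to 54.6 RPKM in LM1KO, and to 53.0 to 74.9 RPKM in LM9 against 53.5 to 53.6 RPKM in LM9KO. In LM1 Jup (plakoglobin, a relative of beta-catenin found in both desmosomes and adherens junctions) held 57.6% of that sum and Dsp (desmoplakin, the anchor of intermediate filaments) 7.7%. In LM1KO Dsp held 46.3% and Jup 4.8%. Jup was at 207, 181 and 194 CPM in LM1 and 201, 317 and 329 CPM in LM9, and at 14.96 to 16.9 CPM in the knockout-labelled libraries. Its log2 fold changes were -3.54 (SE 0.18, adjusted p = 4.68e-09) and -4.12 (SE 0.18, adjusted p = 1.38e-09). Dsp rose, from 38.2, 38.9 and 39.7 CPM in LM1 to 238 to 246 CPM in LM1KO (2.63, SE 0.20, adjusted p = 1.55e-07) and from 38.7, 66.5 and 81.6 CPM in LM9 to 240.5 to 243 CPM in LM9KO (2.04, SE 0.19, adjusted p = 1.15e-06). Exons of Dsp share 499 bases with Gm10129 on the other strand, which stayed below 1 CPM on average in every group.

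Of the plakophilins, which cluster desmosomal cadherins, Pkp1, Pkp2 and Pkp4 rose and Pkp3 fell. Pkp1 (ENSMUSG00000026413; chromosome 1, 135871395 to 135919207, minus strand), best known from the upper layers of skin, had at most 2 counts in any parental library. It was at 39.5, 40 and 38.9 CPM in LM1KO and 38.3, 38.0 and 38.8 CPM in LM9KO. The ratio was 1164 (398 to 5646; adjusted p = 8.51e-10) for LM1KO over LM1 and 3066 (550 to 121111; adjusted p = 5.57e-10) for LM9KO over LM9. Without LM9 replicate 1, the only LM9 library with a Pkp1 count, the level was at least 643-fold higher in LM9KO (adjusted p = 3.62e-12). Pkp2 (found in simple epithelia and heart) rose from 4.76 ± 0.369 to 19.9 ± 0.236 CPM in LM1 (2.06, SE 0.15, adjusted p = 1.2e-07) and from 6.14 ± 1.55 to 20.0 ± 0.804 CPM in LM9 (1.75, SE 0.14, adjusted p = 3.7e-07). Pkp3 (of most epithelia) fell from 28.0 ± 2.79 to 7.02 ± 0.278 CPM in LM1 (-1.99, SE 0.09, adjusted p = 2.55e-09) and from 26.1 ± 0.800 to 6.90 ± 0.284 CPM in LM9 (-1.92, SE 0.09, adjusted p = 3.77e-09). Pkp4, which also binds classical cadherins, rose least, by 0.44 (SE 0.11, adjusted p = 0.00327) and 0.75 (SE 0.12, adjusted p = 8.02e-05). The desmosomal cadherins to which these plaque proteins attach were not analysed here. Leaving out LM9 replicate 1 gave these LM9KO changes of the abundant members: 1.72 for Dsp, -4.35 for Jup, 1.51 for Pkp2, 0.94 for Pkp4, -1.91 for Ctnnb1, 1.55 for Cldn12 and -4.14 for F11r on the log2 scale, with -1.90 for Pkp3, -1.18 for Ctnnd1, 0.70 for Ctnna1, -1.28 for Cdh24 and -0.64 for Tjp1. The rise of Cdh13, from 7 counts over LM9, was 22.7-fold (10.8 to 57.1), and 99.9-fold (17.8 to 3962) without it.

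**Figure D3:**
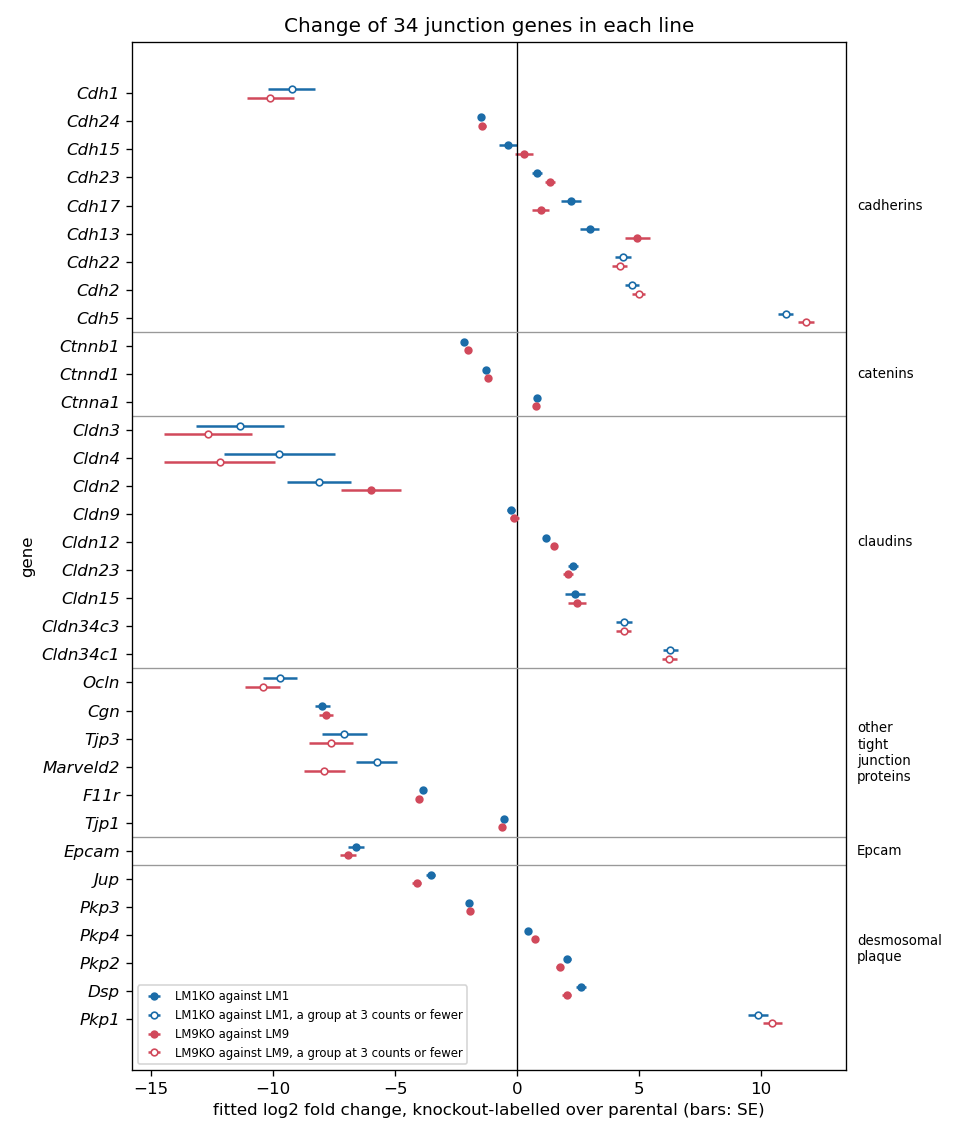
Fitted log2 fold change of 34 tested members (knockout-labelled over parental, bars show the SE) for LM1 and LM9, by class, with open points where a group had 3 counts or fewer in every library, so that the fitted size depends on the offset of the model. The cadherins, catenins, claudins and plaque genes lie on both sides of 0, from Cldn3 on the left to Cdh5 and Pkp1 on the right, and the points of both lines lie on the same side for all genes but Cdh15.

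LM1 and LM9, the 2 parental lines, were compared next. With all libraries, 0 of 35 members passed (limma-voom), where 0.0055% of all genes did. At an unadjusted p under 0.05 there were 17 of 35 members and 8661 of 18176 genes. edgeR called 0 members and DESeq2 11. The count depended on LM9 replicate 1. Without it, 9 members were higher and 13 lower in LM1 than in LM9, where 33.4% and 32.4% of all genes were. Again the shares were near the background.

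The members lower in LM1 than in LM9 replicates 2 and 3 included E-cadherin, Epcam, Cldn3 and Cldn4. Cldn4 was at 25.7 to 29.1 CPM in LM1 and at 152 CPM in both LM9 libraries, a log2 difference (LM1 minus LM9) of -2.48 (SE 0.06, adjusted p = 2.72e-15). Cldn3 differed by -1.94 (SE 0.09, adjusted p = 6.37e-12), Marveld2 by -1.57 (SE 0.15, adjusted p = 7.12e-08), Tjp3 by -1.28 (SE 0.11, adjusted p = 2.4e-08) and Cdh1 by -1.27 (SE 0.08, adjusted p = 5.63e-10). Dsp, Jup, Ocln, Epcam, Pkp2, F11r and Ctnna1 were lower in LM1 by smaller steps, between -0.92 and -0.14. Cdh17 differed by -1.77 (SE 0.16, adjusted p = 3.86e-08). Cldn2 went the other way, with 12.7 to 13.1 CPM in LM1 against 3.02 and 1.89 CPM in LM9, a difference of 2.43 (SE 0.23, adjusted p = 8.92e-08). Cdh13 was also higher in LM1, at 6 or 7 counts per library against 0 and 1. In LM9 replicate 1 Cldn4 (28.7 CPM), Cldn3 (34.7 CPM) and Cdh13 (6 counts) were within the range of LM1, and Cldn2 (13.5 CPM) lay just above it. In Cldn4, Cldn3, Cdh1, Epcam and Jup, LM9 replicate 1 overlapped LM1 and the other two LM9 libraries lay above both.

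**Figure D4:**
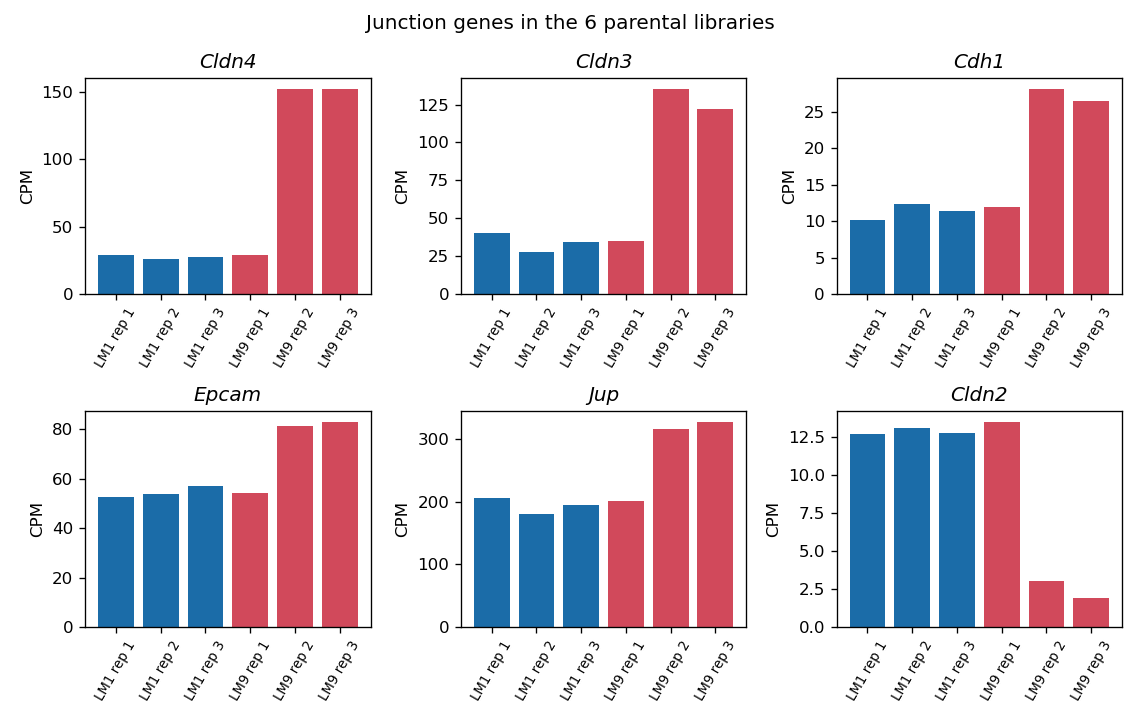
CPM of 6 junction genes in the 3 LM1 and 3 LM9 libraries, 1 bar per library on an axis from 0. LM9 replicate 1 has the height of the LM1 bars in all 6 panels, whereas LM9 replicates 2 and 3 are higher for Cldn4, Cldn3, Cdh1, Epcam and Jup and lower for Cldn2.

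No difference between LM1KO and LM9KO was found in any member. At the threshold 0 of 35 passed with limma-voom, edgeR and DESeq2, where 0% of all genes did with limma-voom, and 1 member had an unadjusted p under 0.05, as did 178 of 18176 genes. The estimates were precise for abundant members, for example -0.01 (SE 0.06) on the log2 scale for Ctnna1 and 0.08 (SE 0.07) for Cdh5. For Cldn4, with at most 2 counts in any of the 6 libraries, the estimate was 0.80 with an SE of 3.17. An interaction term asked whether the change from parental to knockout-labelled libraries differed between lines. It passed in 0 of 35 members and in 0% of all genes, with 5 members and 4495 of 18176 genes at an unadjusted p under 0.05, and edgeR and DESeq2 also called 0. Without LM9 replicate 1, 14 of 36 members passed, against 57.2% of all genes. Among them were Dsp, which rose by 0.91 more in LM1 (SE 0.08, adjusted p = 3.09e-08), and Jup, whose fall was smaller in LM1 by 0.81 (SE 0.08, adjusted p = 3.99e-07). This test shares its parental libraries with the comparison of LM1 and LM9.

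Genes that work beside the members were read from lists. Of 11 nectins, JAM genes and other adhesion molecules at junctions, 4 rose and 5 fell in both lines, where 39.6% and 33.5% of all genes did, and the median log2 fold change was -0.34 in LM1KO and -0.04 in LM9KO. Cxadr, the adhesion molecule that serves as coxsackievirus receptor, went from 379.6 ± 25.9 CPM in LM1 to 0.0513 ± 0.0445 CPM in LM1KO. Lsr (angulin-1, which recruits tricellulin to tricellular contacts) went from 36.0 ± 0.998 to 0.0172 ± 0.0149 CPM. Jam2, an adhesion molecule of vessels, was at 0 in LM1 and at 16.6 ± 0.996 CPM in LM1KO. Clmp, a relative of Cxadr, went from 0.129 ± 0.106 to 28.2 ± 0.657 CPM.

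Of 16 adapters under the membrane, 3 rose and 11 fell in both lines (18.8% and 68.8%, against 39.6% and 33.5% of all genes), with a median log2 fold change of -1.30 in LM1KO and -1.20 in LM9KO. Ppl (periplakin, a relative of desmoplakin) went from 144 ± 2.95 to 0.0773 ± 0.0239 CPM and Plekha7, which binds p120-catenin, from 12.5 ± 1.31 to 0.0171 ± 0.0148 CPM between LM1 and LM1KO. Mpdz, a multi-PDZ scaffold of tight junctions, rose from 39.96 ± 2.37 to 287 ± 1.31 CPM, and Magi2 rose to 0.982 ± 0.179 CPM. Of 11 genes of the polarity complexes, which place the tight junction at the apical border, 1 rose and 8 fell in both lines (9.09% and 72.7%), with medians of -0.99 and -1.13. Prkcz, the gene of atypical protein kinase C zeta, went from 23.0 ± 0.856 CPM in LM1 to 0 counts in all LM1KO and LM9KO libraries. Pard6g fell from 1.02 ± 0.259 to 0.0959 ± 0.0663 CPM. Scrib rose from 64.8 ± 5.03 to 134 ± 2.15 CPM.

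Regulators of the epithelial state, most of them transcription factors known for turning epithelial junction genes off or on, moved in both directions. Of 11 listed, 5 rose and 4 fell in both lines (45.5% and 36.4%, near the 39.6% and 33.5% of all genes), with medians of 0.23 and 0.48. Zeb1, a repressor of Cdh1, went from 0.101 ± 0.0577 CPM in LM1 to 134 ± 2.07 CPM in LM1KO, and from 0.0225 ± 0.0390 to 135 ± 1.04 CPM in LM9. Grhl3, an activator in surface epithelia, went from 0.0461 ± 0.0228 to 59.3 ± 0.579 CPM in LM1. Snai2 was at 0 in the parental lines and at 10.5 ± 0.607 CPM in LM1KO, whereas Snai1, of the same family, fell from 88.7 ± 9.10 to 13.1 ± 0.893 CPM. The epithelial transcription factor Elf3 (24.8 ± 1.45 to 0.344 ± 0.0736 CPM) and Esrp2, an RNA-binding regulator of splicing in epithelia (2.53 ± 0.185 to 0.0428 ± 0.0387 CPM) fell between LM1 and LM1KO, as did Grhl2, by 2.76 on the log2 scale (SE 0.13, adjusted p = 3.83e-09). Binding by these regulators was not measured here.

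Markers of cell types moved with the junction genes, and their counts stand beside the 39.6% of all genes that rose and the 33.5% that fell in both lines. Of 8 listed mammary epithelial markers 3 rose and 5 fell in both lines: Krt8 and Krt18, the keratins of simple epithelium, went from 213 ± 9.59 and 479.9 ± 17.5 CPM in LM1 to 0.121 ± 0.0836 and 0.0436 ± 0.0543 CPM in LM1KO, while the basal keratin Krt14 rose from 0.0584 ± 0.0762 to 6.79 ± 0.0957 CPM and Cited1 from 0.112 ± 0.00885 to 1.92 ± 0.133 CPM. The summed level of the 8 was 697 to 752 CPM in LM1, 747 to 1273 CPM in LM9 and 36.7 to 38.7 CPM in the knockout-labelled libraries. Fibroblast and mural markers were higher in both lines in 6 of 8, led by Col3a1 (0.219 ± 0.161 to 20.4 ± 0.571 CPM in LM1) and Col1a1 (6.10 ± 0.182 to 958 ± 21.6 CPM). Dcn (decorin) fell in LM1KO, from 90.7 ± 4.57 to 11.5 ± 0.536 CPM (-2.98, SE 0.50, adjusted p = 0.000162), and did not pass in LM9KO (adjusted p = 0.0576), where LM9 replicate 1 was at 84.4 CPM and the other two LM9 libraries at 15.7 and 15.1 CPM. The 8 fibroblast and mural markers summed to 3251 to 5717 CPM in the parental and 6478 to 6732 CPM in the knockout-labelled libraries, most of it Vim. Vim was higher in LM1KO (adjusted p = 0.00108) but did not pass in LM9KO (limma-voom, adjusted p = 0.328). In LM9 replicates 2 and 3 Vim was at 5543 and 5468 CPM, above every LM9KO library. All 4 listed kidney tubule markers rose: Aqp2, the water channel of the collecting duct, had 1 count over the 3 LM1 libraries and 1087 ± 25.2 CPM in LM1KO, and Slc12a1 went from 0.577 ± 0.171 to 9.25 ± 0.622 CPM. Their sum was 0.434 to 1.06 CPM in the parental libraries and 987 to 1118 CPM in the knockout-labelled ones, with Pax2 and Pax8 below 1 CPM on average throughout. Of 7 neural and glial markers 5 rose and 1 fell, with sums of 97.4 to 142 CPM in the parental and 259.5 to 276 CPM in the knockout-labelled libraries. Ncam1 rose to 24.2 ± 1.01 CPM and Tubb3 to 17.2 ± 0.213 CPM in LM1KO, and Map2 fell to 14.4 ± 0.441 CPM. Of the 2 listed leukocyte markers Csf1r rose to 12.4 ± 0.670 CPM and Cd68 fell from 459 ± 8.27 to 101 ± 2.25 CPM, and Ptprc was not analysed here. The sum of both was 450.2 to 554 CPM in the parental and 107 to 117 CPM in the knockout-labelled libraries. At 3 counts or fewer in every library of a group were Krt18 in LM9KO, Aqp2, Pax2, Pax8, Col1a2, Lum, Ncam1 and Csf1r in LM1 and in LM9, Col3a1 in LM9, and Tubb3 in LM1. The part of these markers in the changes of the junction genes was not tested, and label and cell type cannot be told apart in this design.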

How the data were processed

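RNA was sequenced from tumourspheres in 12 libraries, 3 in each of the groups LM1, LM1KO, LM9 and LM9KO. According to the submitters' notes and the methods of the study, the authors made stranded poly-A libraries, sequenced single-end reads, aligned them with STAR to mm10 and counted read starts over the union of exons of each gene with qCount of QuasR. Versions, the handling of reads with several alignments and the strand setting of the counting are not given in the sources used here, so overlapping genes and near-identical copies are uncertain. The deposited values were raw counts per gene, with no normalisation and no pooling. Every listed gene reached 8 counts in 3 or more libraries, so a gene outside the list may have been present at a lower level.

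Identifiers were matched to GENCODE M21 on GRCm38, the assembly of mm10 (18268 of 18278 matched), and coordinates are 1-based. The edgeR function filterByExpr (count minimum 10, total minimum 15) kept 18176 genes. limma-voom (TMM factors, offset 0.5, 1 mean per group over all 12 libraries, eBayes, two-sided) was fitted to all of them, with Benjamini-Hochberg adjustment within each contrast and a threshold of 0.05. An exact permutation test of 3 libraries against 3 cannot go below 0.1. Counting intervals are 95% and conditional on the summed counts, and bounds use a floor of 3 counts over the group. RPKM is CPM divided by the exon union in kilobases. limma 3.58.1 and edgeR 4.0.16 ran under R 4.3.3, as did DESeq2 1.42.0. The code was tested on simulated data. The values of depth, CPM and RPKM cover reads, not molecules.

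The members and all lists were chosen with earlier results of these data known, so they are no independent support. Named in full were a set of best-known members (Cdh1, Cdh2, Cdh3, Cdh5, Cdh11, Cdh16, Epcam, Cldn3, Cldn4, Cldn5, Cldn7, Ocln, F11r, Tjp1, Dsp, Jup, Dsg2, Dsc2, Pkp2 and the catenins, where listed), the 3 most abundant and the 4 most changed of each class, and the 2 largest rises and falls of each list. Other genes named were chosen after their values were seen. The alternatives were edgeR's quasi-likelihood test, DESeq2, median-ratio factors, library totals, a replicate block, no filter, genes averaging 1 CPM or more, a fit of only the groups compared, and leaving out each library. The promoter windows are from RefSeq. The values of 1 member and 1 marker gene are not reported here. No sample was left out of the main analysis.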

Additional observations from a re-analysis of the deposited data

How the results depend on the processing

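For the 27 tested genes named by the rule, none of 1072 values under the 20 alternatives changed its sign or its call in either line. With a mean of at least 1 CPM, 27 members were tested and 10 instead of 17 were higher in LM1KO and 10 instead of 17 in LM9KO, since 8 scarce members, such as Cdh2, Cdh22 and Cldn34c1, were no longer tested. For LM1 against LM9 the count of 0 members became 11 with DESeq2, 11 with library totals and 7 with a mean of at least 1 CPM. Leaving out one library gave 0 to 22 members for that comparison and 0 to 14 for the change that differs between lines, where 22 and 14 came without LM9 replicate 1. For LM1KO against LM9KO the count was 0 under every alternative run. Leaving out one library gave 17 members higher and 16 lower in LM1KO each time, and 17 to 18 higher and 16 to 17 lower in LM9KO, where Cdh15 passed as higher without LM9 replicate 3 (adjusted p = 0.033). In that same fit the added lower call was Cdh11, which the main fit did not test.

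With the replicate block the counts were 17 higher and 16 lower in each line and 0 for the other comparisons. Deviations of same-numbered libraries correlated between -0.088 and 0.041, so the numbers do not pair the samples, and the block changed no call count.

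Library totals without factors moved the median change over all genes (log2) from 0.08 to 0.31 in LM1KO and from 0.13 to 0.49 in LM9KO, and the share of calls that were higher from 53.1% to 59.3% and from 53.8% to 63.4%. A fit of only the groups compared could not be made for the difference between lines, which needs all groups. Depth limits the fold of every gene with 20 or fewer counts summed over a group.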
